A study of Mus musculus with 12 samples.

Results

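Immediate early genes are transcribed within minutes of synaptic or hormonal stimulation, before any new protein is made, and their RNAs are short-lived. Calcium entry, cAMP and the ERK cascade act on factors already bound at their promoters, chiefly CREB at cAMP response elements and SRF with its ternary complex partners at serum response elements. The first products are largely transcription factors of the AP-1, EGR and NR4A families, which then drive effector genes at synapses, while phosphatases and kinases encoded by the same programme shut the signal down. In hypothalamic tissue such RNAs are widely read as a record of what neurons, and to a lesser degree glial and vascular cells, did shortly before the tissue was taken.

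A panel of 39 immediate early and other activity-regulated genes, among them the orphan nuclear receptor gene Nr4a1, was examined in the arcuate nucleus. This nucleus is a hypothalamic centre for appetite, energy expenditure and reproduction. The panel was listed by gene symbol, with earlier results of these data known, and all 39 were found among the 16640 genes measured. Bulk RNA sequencing had been made of the microdissected arcuate nucleus of female mice aged 27 weeks. Control mice (Esr1 fl/fl) had floxed alleles of Esr1, which encodes oestrogen receptor alpha, and no Cre. Mutant mice (Esr1 Nkx2-1Cre) carried the same floxed alleles together with a Cre recombinase driven by Nkx2-1, a gene active in the embryonic ventral forebrain, so that deletion is not confined to the arcuate nucleus. Both genotypes ate standard chow or a high-fat diet (HFD) for 17 weeks. On chow there were 3 control and 4 mutant libraries, and on HFD 2 control and 3 mutant ones. Values are the deposited abundance signal, which is normalised for gene length and depth and lies near the scale of TPM. Read depth is unknown, so no counting error can be attached to a value.

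Some properties of the libraries bear on every result below. Esr1 was 1.65 to 6.05 in the 4 mutant chow libraries and 7.29 to 22.4 in the 5 control libraries, but 10.7 to 16.6 in the 3 libraries labelled mutant HFD, which goes against that label. Mutant chow replicate 3 had 1768 genes listed at 0, against 201 to 1019 in the others, and it was the only library with any of the 39 genes at 0 (Egr2, Ier3 and Dusp5). All 7 arcuate neuron markers, among them Pomc, Agrp and Npy, were present in every library. The summed signal of 5 microglial markers was 167 to 221 in control chow, 297 to 344 in mutant chow, 185 to 196 in control HFD and 160 to 229 in mutant HFD, so that it separated mutant chow from the other groups. Taken singly, Ctss, Csf1r and Tmem119 did not overlap between control chow and mutant chow, whereas P2ry12 and Cx3cr1 did. No other marker list of the 12 examined had groups that did not overlap, either on chow or between the diets in mutants. Within groups some lists varied widely. The sum of 3 pars tuberalis and pituitary markers was 525 to 5559 in control chow and 1053 to 1974 in mutant chow. On HFD that sum was 112 to 1422 in controls and 862 to 1732 in mutants.

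All 39 genes passed the filter on low values, and 36 were above 0 in every library. Their levels spanned a wide range on the length-normalised scale. Jund was the most abundant, with a mean signal of 268 over the 12 libraries, and Egr2 the least, at 2.53. Within the families, Nr4a1 averaged 24.9, Nr4a3 9.14 and Nr4a2 4.18, and Egr1 (58.7) far exceeded the other EGR genes. The spread over libraries was also unequal. For 20 of the 39 genes the highest and lowest libraries lay at least 2 apart on the log2(value + 1) scale, which is the scale of every log2 value given here. The widest were Fosb (3.95), an AP-1 subunit whose stable splice product builds up with repeated stimulation, Ier3 (3.71), an early stress-response gene, and Arc (3.27), which encodes a capsid-like protein that regulates AMPA receptor trafficking. Only Jund (0.91), Ier5 (0.70) and Dusp6 (0.99) varied by less than 1.

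Much of this spread lay between libraries of the same group. The mean log2(value + 1) over the 39 genes was 4.43, 3.95 and 3.51 in control chow replicates 1 to 3. It was 3.99, 3.67, 3.45 and 3.99 in mutant chow replicates 1 to 4, 3.96 and 3.78 in control HFD, and 3.53, 3.98 and 3.96 in mutant HFD. Control chow alone thus held the highest library and one close to the lowest. Group means were 3.96 ± 0.46 (SD, n = 3), 3.78 ± 0.27 (SD, n = 4), 3.87 ± 0.13 (SD, n = 2) and 3.82 ± 0.25 (SD, n = 3), and all 4 groups overlapped. Control chow replicate 1 was the highest of the 12 libraries for 14 of the 39 genes and the lowest for 0. The lowest value fell in mutant HFD replicate 1 for 10 genes, in mutant chow replicate 3 for 8 and in control chow replicate 3 for 7. The median log2 value of all genes kept was 4.15 in control chow replicate 1, against 4.05 to 4.27 over the 12 libraries, so that library was not high for genes at large.

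**Figure D1:**
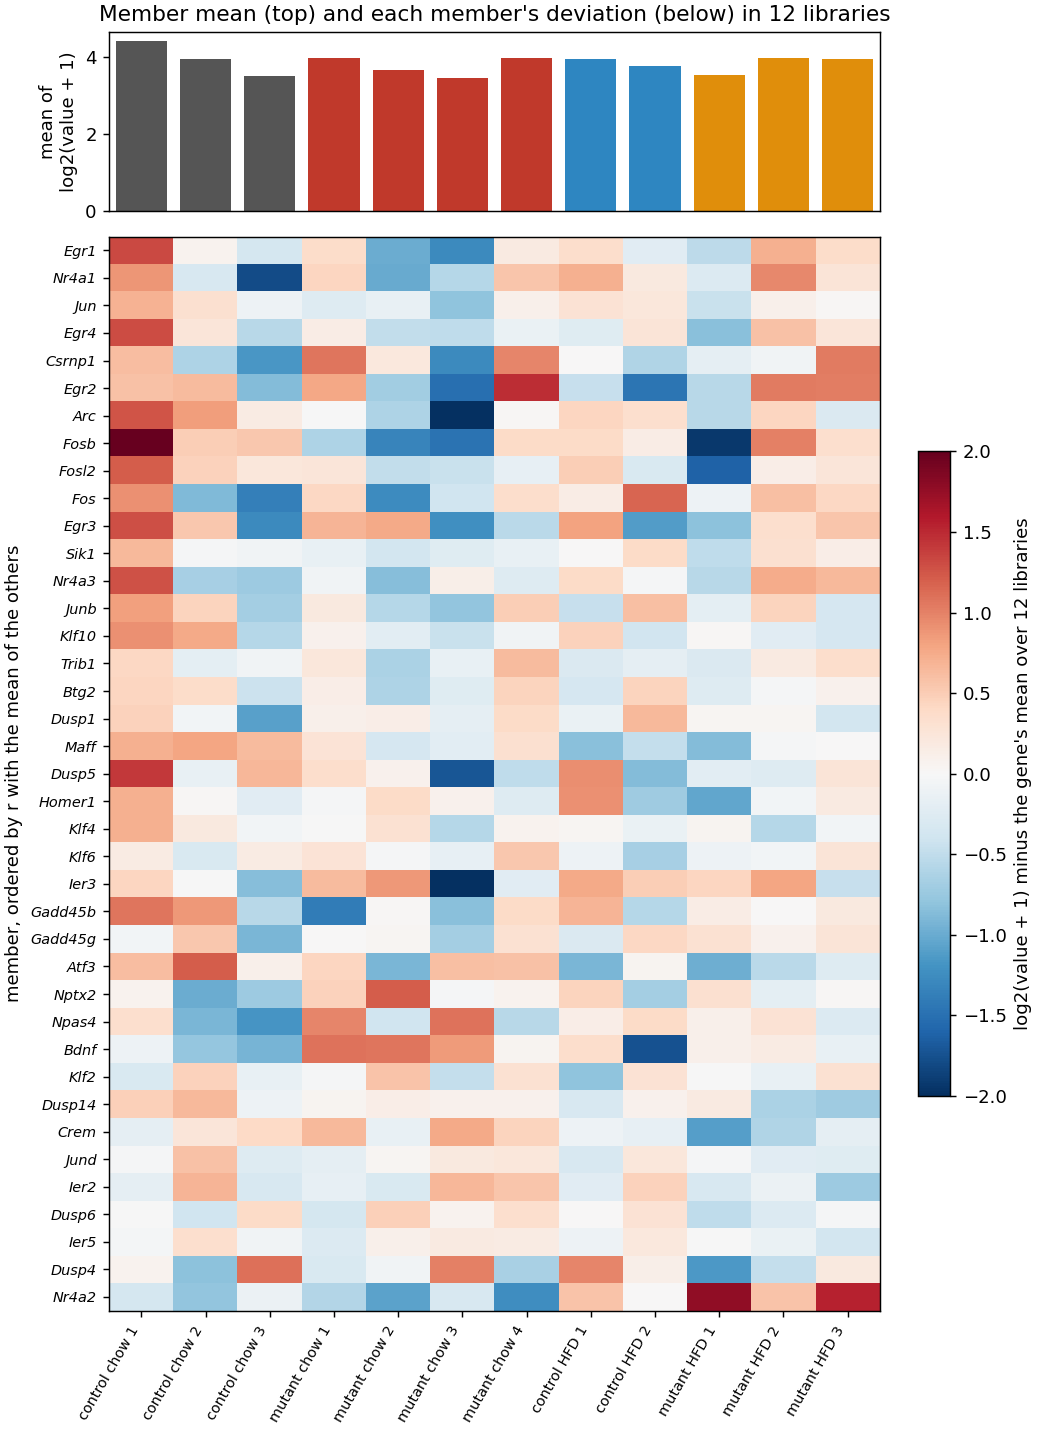
Levels of the panel in each of the 12 libraries. Bars give the mean log2(value + 1) of the 39 genes (control chow grey, mutant chow red, control HFD blue, mutant HFD orange), from 3.45 to 4.43, and tiles give each gene's log2 value minus its own mean over the libraries, with colours saturating at 2 in either direction. The upper rows are mostly red in control chow replicate 1 and mostly blue in mutant chow replicate 3, whereas the lowest row, Nr4a2, is red in the mutant HFD libraries.

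Part of the panel varied together. After group means had been subtracted, the correlation of each gene with the mean of the other 38 was calculated over the 12 libraries, as a description only. It was highest for Egr1, a zinc-finger factor and standard marker of neuronal activation (r = 0.94), Nr4a1 (0.92), the AP-1 subunit Jun (0.89) and Egr4 (0.86), an EGR factor. Csrnp1 (0.84), Egr2 (0.82), Arc (0.80), Fosb (0.77), Fosl2 (0.76) and Fos (0.73) followed. Of the 39 genes, 19 (48.7%) reached r = 0.5, against 1156 of 14935 other genes (7.7%) with the mean of the panel, and the median was 0.48 against -0.01. Of the 20 genes with the wide range given above, 11 reached r = 0.5 and 9 did not. These correlations rest in part on the extreme libraries. Without the 2 libraries farthest from the median, r was 0.96 for Egr1 and 0.82 for Nr4a1, but 0.47 for Fos and 0.02 for Dusp1.

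A second set of genes did not follow. For 9 genes r was below 0: Nr4a2 (-0.41), Dusp4 (-0.38), Ier5 (-0.37), Dusp6 (-0.24), Ier2 (-0.15), Jund (-0.13), Crem (-0.09), Dusp14 (-0.08) and Klf2 (-0.05). Npas4, a neuron-specific factor induced by calcium entry, had r = 0.20, as did Bdnf, the gene for brain-derived neurotrophic factor, and Nptx2, which encodes a secreted pentraxin of excitatory synapses, had 0.22. The 3 NR4A genes were therefore split, with Nr4a3 (0.69) alongside Nr4a1 and Nr4a2 apart from both. Among 10 genes outside the panel with the closest pattern, r was 0.95 for Triqk, 0.93 for Mmp16, 0.92 for Rab27b, 0.89 for Nrarp, 0.88 for Slc2a3 and 0.87 each for Det1, Cdca7, Erlin1, Dnajb1 and Tbc1d22b. Slc2a3 encodes the neuronal glucose transporter GLUT3, Mmp16 a membrane-bound matrix metalloproteinase, Rab27b a GTPase of secretory vesicles and Dnajb1 a heat-shock cochaperone. The 10 genes were taken as the highest among 14935 other genes, so their r is high by selection. Measures not picked by their r gave 0.47 for neuronal, -0.26 for microglial, -0.47 for mural and -0.51 for blood markers. The r was -0.43 for pars tuberalis and pituitary markers and -0.32 for the number of genes at 0. Oligodendrocyte markers gave -0.40, endothelial -0.39, ventromedial 0.36, astrocyte 0.26 and arcuate neuron markers -0.23. For tanycyte and suprachiasmatic markers, the column total and Esr1 it was -0.01, -0.12, -0.12 and 0.14. The part of these measures in the shared variation was not tested.

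**Figure D2:**
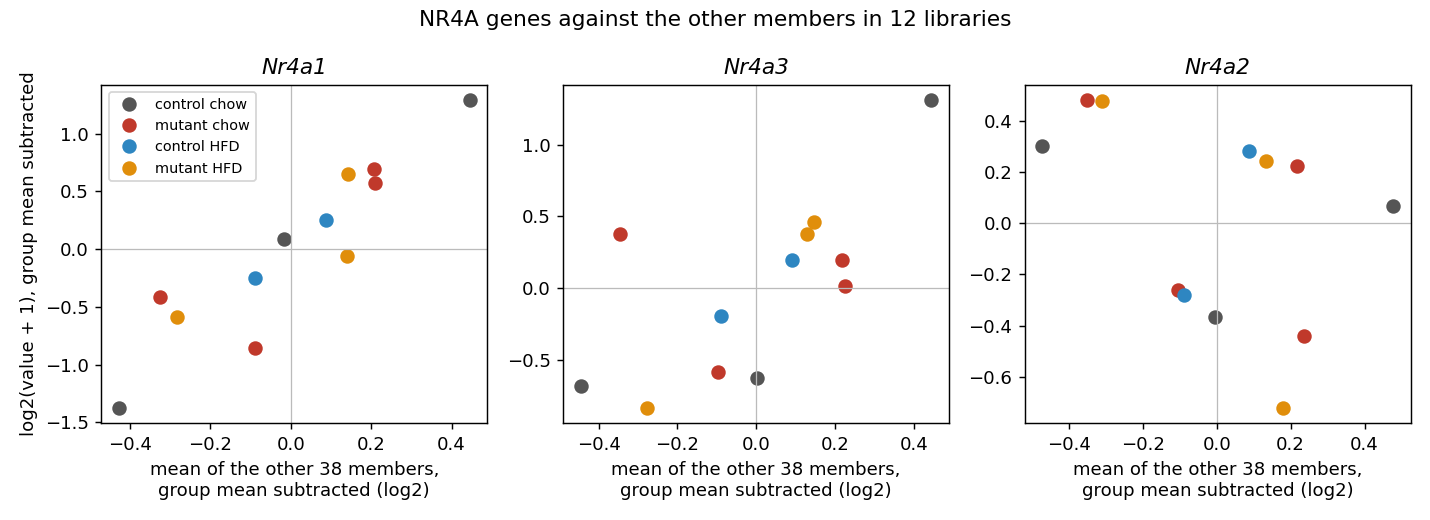
The 3 NR4A genes against the other 38 genes of the panel. Each point is a library, the x axis gives the mean log2(value + 1) of the other 38 genes and the y axis that of the named gene, both with the group mean subtracted. Nr4a1 (r = 0.92) and Nr4a3 (r = 0.69) rise with the rest of the panel and Nr4a2 (r = -0.41) does not.

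Because the NR4A genes shared a name and a family but not a pattern, their upstream sequences are shown, with that of Fos for reference. NR4A receptors bind DNA without a known physiological ligand, so that their activity follows their level, and their transcription is a textbook target of CREB. The sequences are RefSeq, GRCm38.p6, 5′ to 3′ on the gene's strand, and end at the base before the annotated start, or for Nr4a3 at the base before its first GENCODE M21 exon, which begins upstream of the RefSeq start. Capitals mark the CREB half-site TGACG or its complement CGTCA.
Nr4a1, chr15:101266596-101266845, plus strand: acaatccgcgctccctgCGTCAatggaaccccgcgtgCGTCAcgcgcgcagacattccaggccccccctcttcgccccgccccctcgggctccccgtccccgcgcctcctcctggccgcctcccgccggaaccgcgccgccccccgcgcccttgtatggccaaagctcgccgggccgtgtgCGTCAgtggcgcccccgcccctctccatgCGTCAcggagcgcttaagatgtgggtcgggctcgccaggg
Nr4a3, chr4:48045055-48045152, plus strand: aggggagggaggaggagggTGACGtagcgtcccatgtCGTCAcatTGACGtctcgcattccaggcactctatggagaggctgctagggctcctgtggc
Nr4a2, chr2:57124004-57124253, minus strand: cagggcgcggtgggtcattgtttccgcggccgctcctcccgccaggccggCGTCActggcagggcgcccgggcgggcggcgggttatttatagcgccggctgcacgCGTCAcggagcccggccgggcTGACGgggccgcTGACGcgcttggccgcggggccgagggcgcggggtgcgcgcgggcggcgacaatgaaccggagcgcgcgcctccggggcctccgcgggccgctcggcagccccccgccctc
Fos, chr12:85473640-85473889, plus strand: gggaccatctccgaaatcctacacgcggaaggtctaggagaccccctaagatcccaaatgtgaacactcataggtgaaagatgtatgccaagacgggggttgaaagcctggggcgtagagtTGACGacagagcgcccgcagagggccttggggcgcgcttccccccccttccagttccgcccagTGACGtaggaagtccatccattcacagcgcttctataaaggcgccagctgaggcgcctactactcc

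The half-sites shown begin at -233, -213, -69 and -40 from the RefSeq start in Nr4a1, at -231, -213 and -205 in Nr4a3, at -200, -144, -123 and -111 in Nr4a2, and at -129 and -66 in Fos. Windows of 300 bases, 250 of them upstream, were available for 29 of the 39 genes. A half-site on either strand was present for 19 of the 29 (65.5%), against 23% of 27025 genes. Exactly 3 of the 29, Nr4a1, Nr4a2 and Nr4a3, held at least 4 half-sites, as did 0.255% of all genes (69). The full palindrome TGACGTCA, which contains a half-site on each strand, was present for Btg2, Dusp1 and Maff (10.3% of the 29, against 2.03% of all genes). The CArG box, the motif of SRF, was found for Dusp5 and Egr2 (6.9%, against 1.81%). These counts describe letters in a window. Where a gene had several windows, the one with the most sites counted, and some panel genes, such as Bdnf and Egr2, had several. The background of all genes was not matched to the panel for number of windows or base composition. They do not separate Nr4a2 from Nr4a1 and Nr4a3.

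The first comparison asked how the panel differed between the genotypes on chow. No gene of the panel passed the adjusted threshold, and 6 of 39 (15.4%) had an unadjusted p under 0.05 in limma, against 686 of 15801 genes (4.34%). The 2 that were higher in mutants, Bdnf and Nptx2, encode secreted synaptic proteins. The 4 that were lower were Arc and the AP-1 genes Fosb, Jun and Maff. Over all genes 2.59% were higher in mutants at this p and 1.75% lower, while an adjusted p under 0.05 was reached by 0.019%. The groups did not overlap for 5 of the 39 genes, against 4.51% of all genes. The median log2 difference was -0.19 over the panel and 0.01 over all genes, with 26 of the 39 below 0. The panel's median rested on single libraries, at -0.05 without control chow replicate 1 and -0.47 without control chow replicate 3.

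Bdnf (GRCm38 chromosome 2, 109674700 to 109727007) was 3.37, 1.73 and 1.44 in the control chow libraries and 8.91, 8.85, 7.42 and 3.86 in the mutant chow libraries. Every mutant library lay above every control library, although mutant chow replicate 4 did so narrowly. The means were 2.18 ± 1.04 (SD, n = 3) and 7.26 ± 2.37 (SD, n = 4), a ratio of 3.33, and the log2 difference was 1.37 ± 0.47 (SE, 95% interval 0.36 to 2.38, limma unadjusted p = 0.012, Benjamini-Hochberg adjusted p = 0.982). Bdnf has many promoters, and the value per gene does not show which was used. It kept an unadjusted p under 0.05 in 19 of 19 alternatives, at log2 differences of 1.20 to 1.71. On HFD the control libraries read 4.98 and 0.402, which bracket the mutant values of 4.01, 4.22 and 3.23. Markers of the neighbouring ventromedial nucleus also varied between libraries. Their sum over 3 genes was 10.1 to 25.9 in control chow and 18.8 to 68.2 in mutant chow, overlapping ranges whose means differed 2.31-fold. On HFD the sum was 4.43 to 54.3 in controls and 32.7 to 41.3 in mutants. Its mean was 38.4 in mutant chow and 35.9 in mutant HFD, where Bdnf averaged 7.26 and 3.82. Nr5a1, which defines that nucleus, was 9.11, 3.92 and 1.35 in control chow and 16.5, 26.8, 7.0 and 6.90 in mutant chow. On HFD Nr5a1 was 14.9 and 0.489 in controls and 6.50, 7.45 and 6.06 in mutants. The part of ventromedial tissue in the values of Bdnf was not tested.

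Nptx2 (chromosome 5, 144545902 to 144557478) was 32.0, 14.9 and 18.1 in control chow and 42.5, 71.8, 30.0 and 32.1 in mutant chow. The groups overlapped through control chow replicate 1. Its mean was 2.04-fold higher in mutants, with a log2 difference of 0.98 ± 0.36 (SE, limma unadjusted p = 0.0178, adjusted p = 0.982). Without control chow replicate 2 the difference was 0.76 (unadjusted p = 0.0818). Npas4, which acts upstream of Bdnf in cultured neurons, was 4.87, 1.45 and 1.04 in control chow and 8.13, 2.53, 8.79 and 2.17 in mutant chow. Those groups overlapped, and the log2 difference of 0.87 ± 0.49 had an unadjusted p of 0.1 in limma. Homer1, a postsynaptic scaffold whose short activity-induced form is not separated from the long forms by a value per gene, was 28.3, 17.2 and 14.3 against 16.7, 22.4, 18.1 and 14, a log2 difference of -0.12 ± 0.40.

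Arc (chromosome 15, 74669083 to 74672570) was 28.2, 20.7 and 12.6 in control chow and 11.1, 6.92, 2.02 and 11.4 in mutant chow. The groups did not overlap, but control chow replicate 3 and the upper mutant libraries were close. The mutant mean of 7.86 ± 4.40 (SD, n = 4) was 38.4% of the control mean of 20.5 ± 7.80 (SD, n = 3), with a log2 difference of -1.40 ± 0.47 (SE, 95% interval -2.42 to -0.39, limma unadjusted p = 0.0108, adjusted p = 0.982). The lowest value, 2.02, came from mutant chow replicate 3, the library with the most genes at 0. Without that library the difference was -0.95. Arc was thus lower in the same libraries in which Bdnf was higher, and both are neuronal effectors of the programme.

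Fosb (chromosome 7, 19302696 to 19310051) was 39.4, 12.9 and 13.4 in control chow and 5.47, 2.98, 2.54 and 11.9 in mutant chow, again with no overlap. Its log2 difference was -1.78 ± 0.66 (SE, 95% interval -3.22 to -0.34, limma unadjusted p = 0.0197, adjusted p = 0.982). Control chow replicate 1 carried much of this difference. Without that library the difference was -1.27 for Fosb (unadjusted p = 0.105) and -1.15 for Arc (unadjusted p = 0.0535), and the panel's count fell from 6 to 3, namely Bdnf, Nptx2 and Npas4. Jun was 96.2, 73.7 and 55.1 against 49.1, 53.1, 33.4 and 63.3, overlapping groups with a log2 difference of -0.58 ± 0.24 (SE, limma unadjusted p = 0.0328). Maff, a small MAF factor without a transactivation domain, was 11.4, 12.1 and 10.7 against 8.15, 5.03, 5.58 and 8.45, a difference of -0.69 ± 0.30 with no overlap (limma unadjusted p = 0.0412). Neither Jun nor Maff kept an unadjusted p under 0.05 when columns were rescaled to equal sums.

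None of the other AP-1 genes had an unadjusted p under 0.05. Fosl2, an AP-1 partner of the JUN proteins, was 31.1, 18.1 and 15.1 in control chow and 15.3, 8.88, 9.18 and 11.3 in mutant chow, which overlapped narrowly. Its log2 difference of -0.85 ± 0.44 (95% interval -1.80 to 0.10, limma unadjusted p = 0.0765) was larger than that of Jun or Maff. Fos itself was 65.3, 18.1 and 12.7 in control chow and 46.1, 13.7, 25.7 and 43.7 in mutant chow, a log2 difference of 0.22 ± 0.53 (95% interval -0.92 to 1.36). Junb was 115, 89.1 and 40.3 against 74.6, 43.5, 37.1 and 92.2 (-0.36 ± 0.41). Both genes varied within either group by more than the groups differed. In all, 7 of the 8 AP-1 genes and 4 of the 4 EGR genes had a log2 difference below 0. The median over all genes was 0.01, and most of these AP-1 and EGR genes varied together, so their signs are not independent. The EGR genes ran from -0.77 for Egr1 to -0.11 for Egr2. The last was at 0 in mutant chow replicate 3, and its mean was higher in mutants (2.87 against 2.41). Egr1 was 132, 55.2 and 40.8 in control chow and 68.0, 25.8, 21.2 and 59.5 in mutant chow, and its interval ran from -1.81 to 0.26. Without control chow replicate 1 its difference was -0.29.

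The NR4A genes did not separate the genotypes on chow. Nr4a1 (chromosome 15, 101254269 to 101274795) was 40.8, 17.2 and 5.61 in control chow and 29.6, 10.3, 14.4 and 32.3 in mutant chow. Both the highest and the lowest of these 7 values belonged to controls. The log2 difference was 0.26 ± 0.56 with a 95% interval of -0.96 to 1.48, which does not exclude a sizeable difference in either direction. Leaving out single libraries moved it from -0.42 to 0.91. The differences were -0.39 ± 0.38 for Nr4a2 and -0.22 ± 0.49 for Nr4a3.

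Among genes that end the response, the 7 feedback phosphatases, kinases and pseudokinases had differences from -1.09 (Dusp5, a nuclear ERK phosphatase) to 0.33 (Dusp1, which inactivates p38, JNK and ERK), and 0 of the 7 had an unadjusted p under 0.05. Sik1, a kinase that exports CREB coactivators from the nucleus, was 19.8, 12 and 11.6 in control chow and 10.9, 9.21, 10.2 and 10.9 in mutant chow. Its groups did not overlap, yet the log2 difference was only -0.41 ± 0.27 (limma unadjusted p = 0.156), and -0.18 without control chow replicate 1. The 4 Krüppel-like factors ranged from -0.53 (Klf10) to 0.15 (Klf6). The other 8 genes ranged from -0.92 for Gadd45b, which takes part in DNA demethylation and stress signalling, to 0.63 for Csrnp1, and 0 of them had an unadjusted p under 0.05. The summed microglial markers were higher in all mutant chow libraries, as given above, and their part in these differences was not tested. In bulk tissue fewer cells of a type and less RNA per cell cannot be told apart.

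**Figure D3:**
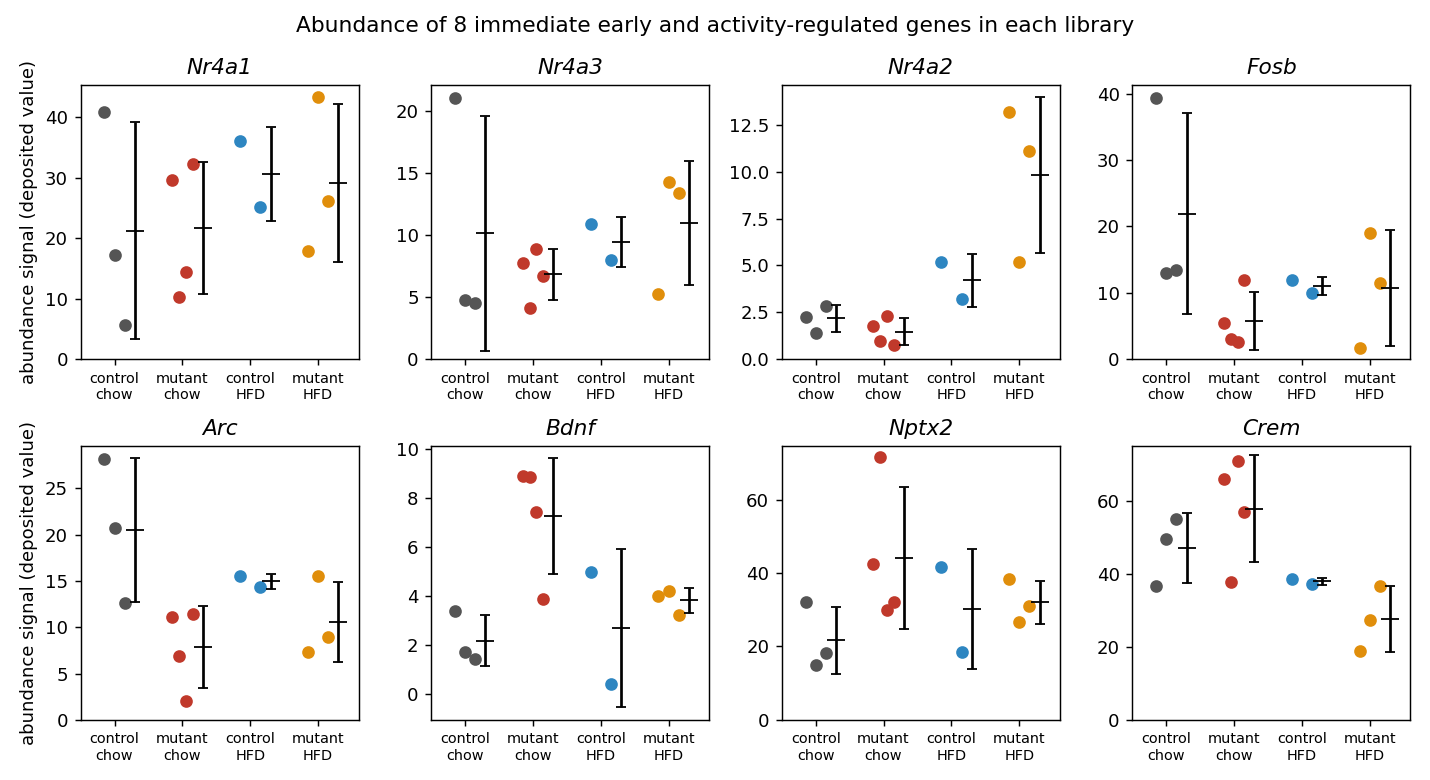
Abundance signal of 8 genes of the panel in every library. Points are libraries, in the order of their replicate numbers, and the bar beside each group gives the mean and SD (n = 3, 4, 2 and 3), which for Bdnf in control HFD reaches below 0. Bdnf is higher and Arc and Fosb are lower in all 4 mutant chow libraries than in all 3 control chow libraries, and Nr4a2 is higher in the mutant HFD libraries (5.19 to 13.2) than in mutant chow (0.751 to 2.32).

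The second comparison asked how the panel differed between the diets in mutants. It shares the 4 mutant chow libraries with the first, and Esr1 in its HFD libraries lay inside the control range, so diet and the extent of Esr1 loss cannot be told apart. No gene of the panel passed the adjusted threshold (0.019% of all genes did), and 2 of 39 (5.13%) had an unadjusted p under 0.05, close to the 5.37% of all genes. Those 2 genes, Nr4a2 and Crem, were also the only ones of the panel whose groups did not overlap, against 7.99% of all genes. The median log2 difference was 0.00 over the panel and -0.02 over all genes. It was 0.23 without mutant HFD replicate 1 and -0.14 without mutant chow replicate 3.

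Nr4a2 (chromosome 2, 57106830 to 57124003), which encodes NURR1 and is best known for specifying dopaminergic neurons, was 1.77, 0.982, 2.32 and 0.751 in mutant chow and 13.2, 5.19 and 11.1 in mutant HFD. The lowest HFD library was above the highest chow library, and all 3 exceeded the control chow values of 2.27, 1.41 and 2.84. The mean was 1.46 ± 0.721 (SD, n = 4) on chow and 9.82 ± 4.16 (SD, n = 3) on HFD, a ratio of 6.75. On the log2(value + 1) scale, which understates changes at such low levels, the difference was 2.10 ± 0.38 (SE, 95% interval 1.28 to 2.93, limma unadjusted p = 0.000114, adjusted p = 0.251). It was 1.86 to 2.69 over 19 alternatives, each with an unadjusted p under 0.05. In controls Nr4a2 was 5.20 and 3.20 on HFD, again above every control chow library, with a log2 difference of 0.71 ± 0.45 (limma unadjusted p = 0.142).

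Its relatives had smaller differences, with 95% intervals that spanned both signs and also overlapped that of Nr4a2. Nr4a1 was 17.8, 43.3 and 26.2 in mutant HFD, of which the first and last lay within the span of the mutant chow libraries, with a log2 difference of 0.46 ± 0.56 (95% interval -0.76 to 1.68). Nr4a3 was 5.22, 14.3 and 13.4 against 7.74, 4.09, 8.91 and 6.70, a difference of 0.54 ± 0.49 (95% interval -0.53 to 1.61). In absolute terms Nr4a2 moved from the scarcest NR4A gene on chow to about the level of Nr4a3, whose mean in mutant HFD was 11 ± 5.0 (SD, n = 3).

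Crem encodes CREM activators as well as ICER, a cAMP-induced repressor made from an internal promoter, and a value per gene does not separate them. It was 65.8, 37.7, 70.8 and 56.8 in mutant chow and 18.9, 27.2 and 36.7 in mutant HFD. The groups did not overlap, though mutant chow replicate 2 and mutant HFD replicate 3 were nearly equal. The mutant HFD mean of 27.6 ± 8.89 (SD, n = 3) was 47.8% of the mutant chow mean of 57.7 ± 14.6 (SD, n = 4), with a log2 difference of -1.05 ± 0.26 (SE, 95% interval -1.61 to -0.48, limma unadjusted p = 0.00162, adjusted p = 0.564). It was -1.27 to -0.81 over 19 alternatives, each with an unadjusted p under 0.05. Summed microglial markers were also lower in mutant HFD without overlap, and their part in the values of Nr4a2 and Crem was not tested.

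The genes that were lower in mutants on chow did not separate the diets in mutants. The log2 difference was 0.56 ± 0.66 for Fosb, 0.52 ± 0.47 for Arc, 0.17 ± 0.24 for Jun and -0.30 ± 0.30 for Maff. Bdnf differed by -0.73 ± 0.47, with mutant HFD values of 4.01, 4.22 and 3.23 that overlapped mutant chow only through its replicate 4. Fos, at 31.9, 52.4 and 46.1 in mutant HFD, differed by 0.53 ± 0.53, and Egr1, at 36, 86.1 and 68.0, by 0.61 ± 0.48. Dusp14, a phosphatase of MAP kinases, had the next lowest p of the panel, at 24.4, 13.4 and 12.6 in mutant HFD against 22.1 to 23.6 in mutant chow (-0.48 ± 0.26, limma unadjusted p = 0.088). Npas4 (-0.24 ± 0.49), Junb (0.14 ± 0.41) and Homer1 (-0.35 ± 0.40) had differences below or about their standard errors.

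**Figure D4:**
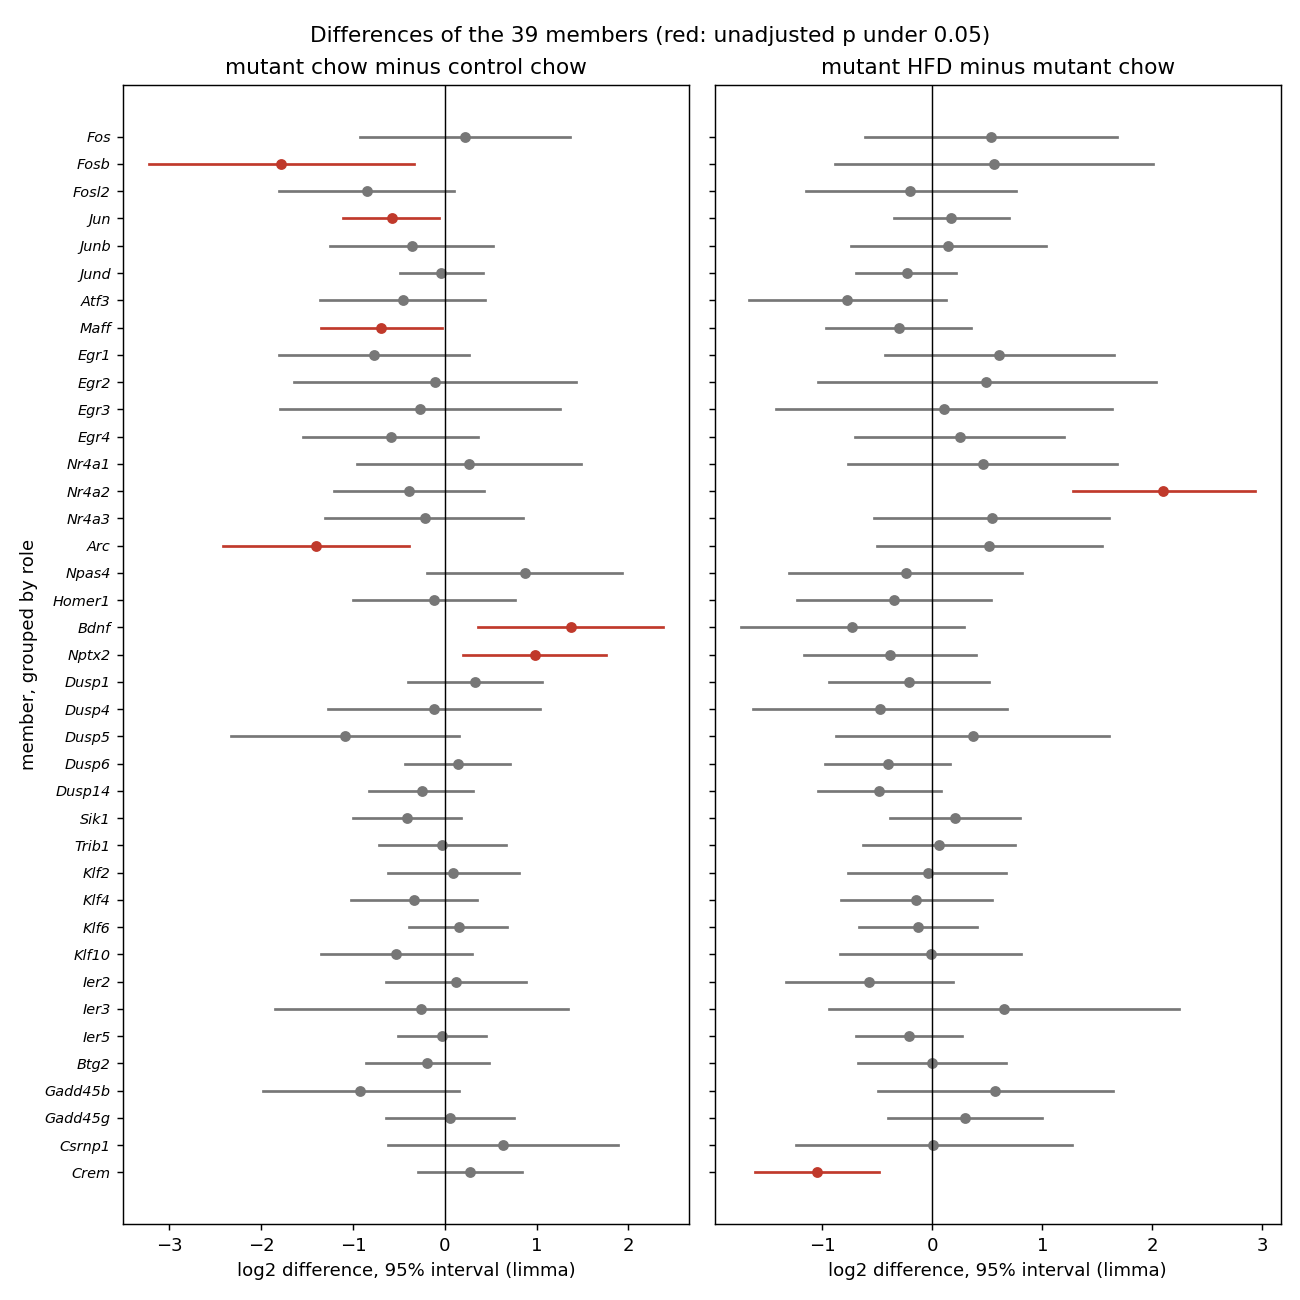
Log2 differences of all 39 genes between the genotypes on chow and between the diets in mutants. Points are limma estimates on the log2(value + 1) scale, lines are 95% intervals, genes are grouped by role, and red marks an unadjusted p under 0.05, which 6 genes reached on chow and 2 between the diets. No gene reached an adjusted p under 0.05 in either comparison.

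Between the genotypes on HFD, 1 gene of the panel (2.56%) had an unadjusted p under 0.05, against 2.21% of all genes, and 0 of the panel and 0.00633% of all genes had an adjusted one. That gene was Nr4a2, higher in the libraries labelled mutant HFD by 1.00 ± 0.45 on the log2 scale (95% interval 0.01 to 1.98, limma unadjusted p = 0.0471, adjusted p = 1), with the lowest mutant library (5.19) just under the higher control library (5.20). It kept that p in 8 of 19 alternatives. Egr2 was 1.07 and 0.0304 in control HFD and 0.937, 4.82 and 4.78 in mutant HFD, a log2 difference of 1.46 ± 0.84 between overlapping groups. Dusp4, an ERK phosphatase of the nucleus, was 6.41 and 3.09 against 0.707, 1.70 and 3.33, a difference of -1.02 ± 0.64.

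In controls, with only 2 HFD libraries, 1 gene of the panel (2.56%) had an unadjusted p under 0.05 between the diets, against 3.54% of all genes, and no gene at all had an adjusted one (0%). Maff was 3.26 and 4.48 on HFD, below all 3 control chow libraries (10.7 to 12.1). The HFD mean was 34.0% of the chow mean, with a log2 difference of -1.35 ± 0.36 (SE, 95% interval -2.14 to -0.57, limma unadjusted p = 0.00268, adjusted p = 0.998) that kept its unadjusted p under 0.05 in 19 of 19 alternatives. Maff was thus highest in control chow and lower in the other 3 groups, where it ranged from 3.16 to 8.45. Atf3, a stress-induced partner of AP-1, was 7.40 and 15.4 on HFD and 23.2, 35.5 and 16.0 on chow (-1.07 ± 0.49, limma unadjusted p = 0.0501). Fos was 38.1 and 77.5 on HFD, with a difference of 1.10 ± 0.63. Nr4a1 was 36.1 and 25.1 on HFD, inside the span of the control chow libraries, with a difference of 0.86 ± 0.67 (95% interval -0.60 to 2.32). Without control chow replicate 1 the count was 4 rather than 1, as Fos, Nr4a1 and Npas4 joined Maff.

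The genotype by diet interaction, which tests whether the genotype difference itself differs between the diets, had an unadjusted p under 0.05 for 2 genes of the panel (5.13%), against 3.44% of all genes, and an adjusted one for none of either (0%, with 543 genes under an unadjusted 0.05 in limma). Those genes were Nr4a2 (1.39 ± 0.59, limma unadjusted p = 0.036) and Maff (1.05 ± 0.47, limma unadjusted p = 0.0456), each with an adjusted p of 0.999. Crem had -0.77 ± 0.41 (limma unadjusted p = 0.0836), and Nr4a1 -0.40 ± 0.88 with an interval of -2.30 to 1.5.

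The signalling components that act on these promoters were examined next. Of 40 genes for CREB and its coactivators, SRF and MEF2 factors, ERK and calcium-dependent kinases, calcineurin, and the calcium channels and NMDA receptors above them, 1 had an unadjusted p under 0.05 on chow (2.5%, against 4.34% of all genes) and 2 between the diets in mutants (5%, against 5.37%). Rps6ka1, an ERK-activated S6 kinase (RSK1), had a mean of 12.3 in control chow, 22.8 in mutant chow, 17.8 in control HFD and 9.22 in mutant HFD. The log2 difference was 0.81 ± 0.24 on chow (limma unadjusted p = 0.00475) and -1.19 ± 0.24 between the diets in mutants (limma unadjusted p = 0.000263, adjusted p = 0.346). Between the genotypes on HFD it was -0.86 ± 0.28 (limma unadjusted p = 0.00967, adjusted p = 1), and the interaction was -1.67 ± 0.37 (limma unadjusted p = 0.00062, adjusted p = 0.999). Summed microglial markers had means of 197 in control chow, 313 in mutant chow, 190 in control HFD and 186 in mutant HFD. Their part in the values of Rps6ka1 was not tested. Crtc2, a coactivator that enters the nucleus with cAMP and calcium signals, was lower between the diets in mutants, from 31.4 to 17.5 (-0.81 ± 0.25, limma unadjusted p = 0.00639). Median log2 differences over the list were 0.05 on chow and 0.09 between the diets, against 0.01 and -0.02 over all genes.

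A further list of 40 activity-regulated genes, of which 39 could be tested, held 2 genes with an unadjusted p under 0.05 on chow (5.13%, against 4.34% of all genes), both lower in mutants. They were Coq10b (-0.59 ± 0.21) and Baz1a (-1.52 ± 0.63). Between the diets in mutants it held 4 (10.3%, against 5.37%), with Sstr2, a somatostatin receptor gene, higher on HFD and Vgf, Rgs4 and Cebpd lower. Vgf, which encodes a secreted precursor of neuroendocrine peptides, had a mean of 772 in mutant chow and 440 in mutant HFD (-0.81 ± 0.18, limma unadjusted p = 0.000589, adjusted p = 0.444). In controls Vgf was likewise lower on HFD, at 433 against 609 (-0.48 ± 0.21, limma unadjusted p = 0.0422), along with Ccn2 and Cebpb. These 3 genes were 7.69% of those tested, against 3.54% of all genes. Between the genotypes on HFD, 0 of the 39 had an unadjusted p under 0.05, against 2.21% of all genes. None of these genes passed the adjusted threshold in limma.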

How the data were processed

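RNA of the arcuate nucleus from 12 libraries was quantified by the authors with Kallisto in gene mode against mm10. The deposited values are an abundance signal, normalised by the authors for length and depth, whose columns sum to 922172 to 1254999. Read counts, versions and the use of strand are not given in the sources used here, so reads of overlapping genes on opposite strands (8 genes of the panel, Jun, Junb, Bdnf and Crem among them) cannot be assigned. Symbols and positions came from GENCODE M21 (GRCm38), with 16633 of 16640 genes matched and 7 without a symbol. No 2 libraries held identical values.

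Genes with a value of at least 1 in at least 2 libraries (15801) were fitted as log2(value + 1) with limma 3.58.1 (trend, R 4.3.3), with 1 mean per group over all 12 libraries. The 5 contrasts were two-sided, with Benjamini-Hochberg adjustment over all genes and a threshold of 0.05. The fit was tested on simulated data in which genes varied independently, so that test does not cover counts of genes that vary together. The sources do not say whether libraries are single animals, so p-values measure the spread between libraries. Libraries are numbered as deposited, and the numbers pair nothing.

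The panel, the lists and the markers were chosen with earlier results of these data known. Named were Nr4a1, Fos, Egr1, Arc, Npas4, Junb, Homer1 and Bdnf, the 3 genes with the lowest p per contrast, genes whose groups did not overlap on chow or between the diets in mutants, the 3 with the widest range, and the 10 outside genes most like the panel mean. Jun, Nr4a3, genes at the ends of a range and genes of the other lists with an unadjusted p under 0.05 were named after their values had been seen. Alternatives were quantile normalisation, rescaled columns, a pseudocount of 0.1, no filter, no trend, array weights, only the groups compared, and leaving out each library.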

Additional observations from a re-analysis of the deposited data

Results flagged for a closer look

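Of the 40 measures checked for a lone library in the 4 mutant chow libraries (the 39 genes and their mean), 0 stood out, where chance gives about 1 in 20. A difference between the genotypes in the response to diet had an unadjusted p under 0.05 for 2 genes, neither of which passed adjustment over all genes (adjusted p = 0.999 by limma and Benjamini-Hochberg for both genes). In the case of Nr4a2 the interaction was 1.39 on the log2 scale, with HFD above chow in both genotypes by 2.10 in mutants and 0.71 in controls. It kept an unadjusted p under 0.05 in 9 of 18 alternatives. For Maff the interaction was 1.05, with HFD against chow at -1.35 in controls and -0.30 in mutants, and it kept that p in 7 of 18 alternatives.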

How the results depend on the processing

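Over 32 pairs of a named gene and a comparison, 540 of 605 values kept their direction and their side of an unadjusted 0.05, 44 lost an unadjusted p under 0.05, 12 gained it and 9 turned in sign. The count of genes with an adjusted p under 0.05 stayed 0 in every alternative run. For none of these changes was the cause tested. Array weights gave -0.01 for Fos on chow, 0.12 for Npas4 between the diets in mutants, and counts at an unadjusted 0.05 of 4 between the diets in mutants, 0 between the genotypes on HFD and 1 for the interaction. Rescaled columns gave 0 and 1 for the last 2, a pseudocount of 0.1 gave 0 and 0, and only the groups compared gave 0 on HFD (for the interaction, which uses all 4 groups, it is the same fit). Rescaling moved the median of all genes by 0.13 between the diets in controls and by -0.15 for the interaction, and the panel's median relative to all genes stayed at -0.20 on chow. Leaving out single libraries moved the panel's own median from -0.47 to -0.05 on chow and from -0.14 to 0.23 between the diets in mutants. Leaving out each library gave counts of 3 to 8 on chow, 2 to 4 between the diets in mutants, 0 to 2 between the genotypes on HFD, 1 to 4 between the diets in controls and 0 to 3 for the interaction. The count of 4 between the diets in mutants came without mutant HFD replicate 1, that of 4 in controls without control chow replicate 1, and the interaction's 0 without control chow replicate 1 or 3. It gave log2 differences on chow of -0.42 to 0.91 for Nr4a1, -0.24 to 0.90 for Fos and -0.32 to 0.15 for Homer1, with the sign of Nr4a1 and Fos turned without control chow replicate 3. Fosb on chow also lost its unadjusted p under 0.05 without mutant chow replicate 3. Between the diets in mutants these log2 differences were -0.51 to 0.03 for Npas4, -0.09 to 0.36 for Junb and -0.59 to 0.02 for Homer1. Leaving out a control HFD library leaves 1, which is then assumed to vary like the other groups. The labels give no replicate numbers, and those in the column names only count the libraries within a group, so no fit pairing libraries by number was made. Without read counts, depth limits cannot be given.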
